A study of Mus musculus with 23 samples.

Results

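The Pax, Lhx, Dlx, sine oculis (Six2 and its relatives) and Sox genes code for transcription factors that pattern the embryo. Their gene start windows were chosen by symbol, as every symbol made of 1 of these family names and a number. The symbol Pax5, a gene of the B cell programme, was left out by the same rule. The rule gave 47 of the 41388 windows counted, with 19 Sox, 8 Pax, 8 Lhx, 6 Dlx and 6 sine oculis genes. Each window was stated to span 3 kb at a transcription start site.

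Methylated DNA was captured with MethylMiner, a kit in which a methyl-CpG binding protein holds DNA fragments that carry methylated CpG sites, and the captured fragments were sequenced. The DNA was that of heart (left ventricle) and spleen, taken from male C57Bl/6 mice that were housed singly and went through minipump surgery. Their ages, and what the minipumps held, were not given. The high fibre groups ate a diet rich in resistant starch (SF11-025), the acetate groups drank 100 mM magnesium acetate, and the control groups ate a diet without resistant starch. Each diet ran from 3 weeks before surgery to the end of the study. Heart had 4 high fibre, 3 acetate and 4 control libraries, and spleen had 4 of each. The labels do not say that each library of a group came from its own mouse, and the spread behind each p-value is that between libraries, which may be partly technical.

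These families share a mode of regulation. Pax proteins bind DNA through a paired domain, Lhx proteins join LIM domains to a homeodomain, Dlx and sine oculis proteins carry homeodomains, and Sox proteins bend DNA with an HMG box. In most adult tissues many of these genes are silent, and their CpG-rich starts are often held by Polycomb proteins with little DNA methylation. A capture assay reads how many methylated CpG sites a fragment holds, so a start can be rich in CpG and still give few reads when those sites are unmethylated.

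Promoters of 7 members that the results turn on are printed to show how many CpG sites lie just before a listed start. Each is the 250 bases before the first start listed for the gene in RefSeq's annotation of GRCm38.p6. It is written 5′ to 3′ on the gene's own strand with every CpG in capitals. Six4 has 2 such starts and Lhx6 has 3. For Six4, Lhx6 and Sox30 the printed bases lie inside the gene span. The 7 are 3 members with more captured DNA in heart than in spleen (Six4, Pax8 and Lhx6), 3 with less (Sox8, Sox30 and Six5) and Sox11, which was higher on high fibre in heart. Six4 lay at chr12:73113246-73113495 on the minus strand, Pax8 at chr2:24475600-24475849 (minus), Lhx6 at chr2:36105409-36105658 (minus) and Sox8 at chr17:25570687-25570936 (minus). Sox30 lay at chr11:45980060-45980309 (plus), Six5 at chr7:19094294-19094543 (plus) and Sox11 at chr12:27342719-27342968 (minus).
Six4: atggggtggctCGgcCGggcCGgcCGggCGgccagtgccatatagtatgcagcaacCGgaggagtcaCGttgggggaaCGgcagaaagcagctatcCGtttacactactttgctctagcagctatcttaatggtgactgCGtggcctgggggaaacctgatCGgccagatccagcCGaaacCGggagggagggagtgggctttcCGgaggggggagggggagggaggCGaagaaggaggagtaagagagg
Pax8: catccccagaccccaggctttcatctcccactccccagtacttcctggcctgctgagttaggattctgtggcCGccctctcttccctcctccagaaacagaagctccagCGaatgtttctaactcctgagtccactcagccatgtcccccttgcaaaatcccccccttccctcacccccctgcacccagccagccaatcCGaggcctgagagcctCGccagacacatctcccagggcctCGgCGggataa
Lhx6: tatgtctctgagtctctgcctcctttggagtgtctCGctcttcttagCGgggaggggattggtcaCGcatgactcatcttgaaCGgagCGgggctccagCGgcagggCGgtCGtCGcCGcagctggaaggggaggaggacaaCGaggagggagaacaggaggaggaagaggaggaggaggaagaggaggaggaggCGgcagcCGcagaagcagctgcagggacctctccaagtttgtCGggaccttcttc
Sox8: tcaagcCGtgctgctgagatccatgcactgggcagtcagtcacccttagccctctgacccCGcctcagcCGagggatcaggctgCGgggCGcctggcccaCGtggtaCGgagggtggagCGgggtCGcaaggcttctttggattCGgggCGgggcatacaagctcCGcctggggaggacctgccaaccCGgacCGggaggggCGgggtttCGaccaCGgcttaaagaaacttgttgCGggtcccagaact
Sox30: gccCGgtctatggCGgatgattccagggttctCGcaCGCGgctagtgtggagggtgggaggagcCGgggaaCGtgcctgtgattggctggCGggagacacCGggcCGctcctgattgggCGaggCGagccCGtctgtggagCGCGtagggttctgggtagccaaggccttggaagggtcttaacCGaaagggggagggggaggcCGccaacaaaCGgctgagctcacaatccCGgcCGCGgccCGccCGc
Six5: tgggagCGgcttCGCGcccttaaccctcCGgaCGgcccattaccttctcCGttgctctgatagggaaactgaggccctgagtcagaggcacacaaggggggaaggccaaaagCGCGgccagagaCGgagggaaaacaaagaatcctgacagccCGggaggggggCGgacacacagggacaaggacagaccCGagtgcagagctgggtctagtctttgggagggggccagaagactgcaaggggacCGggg
Sox11: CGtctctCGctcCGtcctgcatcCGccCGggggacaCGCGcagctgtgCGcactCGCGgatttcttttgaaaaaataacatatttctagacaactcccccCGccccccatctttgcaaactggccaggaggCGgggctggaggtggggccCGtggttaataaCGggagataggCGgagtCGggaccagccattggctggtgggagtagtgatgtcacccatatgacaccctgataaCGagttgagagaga

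In these 250 bases Six4 had 15 CpG sites, Pax8 had 6, Lhx6 had 14, Sox8 had 18, Sox30 had 23, Six5 had 13 and Sox11 had 17. The median was 15 over the 33 members with a promoter in the RefSeq table and 10 over 17648 promoters matched to a window. The members higher in heart and those lower in heart both included CpG-rich promoters. Over the table's full 300 bases the 33 members had a median of 18 CpG sites, against a median of 13 over the 17648 promoters. The members ranged from 3 (Sox5, at a start inside its gene span) to 47. The ratio of observed to expected CpG was above 0.6 in 69.7% of the 33 members, against 47.8% of all promoters. Across 30 members the number of CpG sites and the heart over spleen change on the control diet had a Spearman rho of 0.03, given as a description over genes that share the same libraries; over 15652 windows rho was -0.21.

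Total counts were 4.12 to 8.60 M (mega) in heart libraries and 4.36 to 9.87 M in spleen libraries. A single window of the predicted gene Gm10800 took 17.3% to 50.05% of the counts in heart and 48.2% to 61.2% in spleen. Its share in heart was 19.05% ± 1.70 on high fibre, 33.8% ± 10.5 on acetate and 42.3% ± 5.80 on the control diet (SD, n = 4, 3 and 4). In heart acetate replicate 1, of 39 tested members, 12 were lower and 8 higher than in every other heart library. This was not counted for the other libraries or over all windows. Its median count per window, 26, was the lowest in heart, where the highest was 70. In it 7 members had 0 counts, among them the 3 with 0 counts in every library. On the control diet 9 of 14 cardiomyocyte marker windows were lower in heart than in spleen and 4 were higher, while 7 of 9 B cell marker windows were higher and 0 were lower. In the same comparison 4 of 8 T cell windows were higher and 1 was lower, 3 of 4 tested myeloid windows were higher and 0 were lower, and 2 of 6 endothelial windows were higher and 4 were lower. Of all windows tested there, 40.0% were higher and 32.7% lower, and no marker list was tested against that share. Libraries were compared after TMM scaling, which sets the bulk of windows level between libraries, and levels below are CPM, counts per M counts after that scaling over all 23 libraries.

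Reads were spread very unevenly over the 47 windows. Sox13 had 14013 counts over all libraries, Sox5 had 11374 and Sox6 had 5426. These SoxD genes act in cartilage, nerve and lymphoid cell development. RefSeq lists 28 transcripts for Sox5 and 51 for Sox6, and a window that joins several starts covers more sequence, so counts are not ranked between genes as methylation levels. The windows of Sox15, Six6 and Dlx6 had 0 counts in all 23 libraries, as did 3704 of the 41388 windows. Six6 acts in the eye and pituitary, Dlx6 in jaw and limb, and Sox15 in muscle precursors and trophoblast. RefSeq places the antisense transcripts Dlx6os1 and Dlx6os2 within 1500 bases of the gene span of Dlx6, and Mpdu1 near Sox15. What sets a window to 0 in every library was not tested. Lhx5 had 10 counts in all, Six3 had 27 and Dlx4 had 56, too few to be tested. The other 41 members passed the filter on low counts over both tissues (a minimum count of 10), 39 passed in heart and 28 in spleen. The heat map by library shows these levels.

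**Figure D1:**
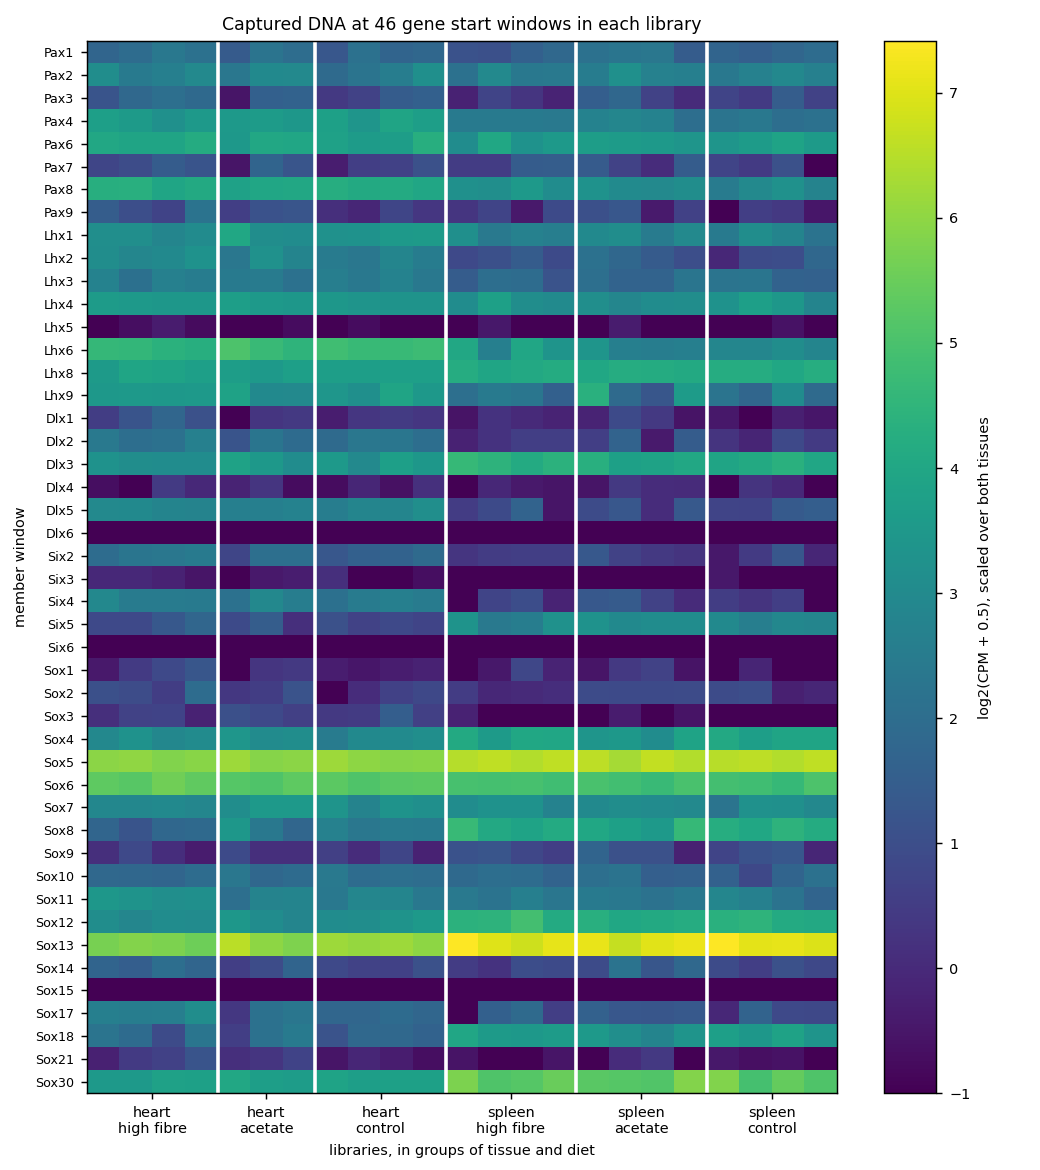
Level of 46 members (rows) in each of the 23 libraries (columns, grouped by tissue and diet and separated by white lines), as log2(CPM + 0.5) with both tissues scaled together. Sox13, Sox5 and Sox6 are bright in every library, Sox15, Six6 and Dlx6 are at the bottom of the colour scale throughout, and Lhx6 and Dlx5 are brighter in heart while Sox8 and Sox30 are brighter in spleen.

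More members passed the test between heart and spleen than between diets. On the control diet 14 of 41 tested members were higher in heart than in spleen and 10 were lower (edgeR's quasi-likelihood test, Benjamini-Hochberg adjusted p under 0.05). By family 2 of 4 Dlx genes were higher in heart and 1 was lower, and 5 of 7 Lhx genes were higher and 1 was lower. Of 8 Pax genes 2 were higher and 0 lower, and of 18 Sox genes 2 were higher and 7 lower. In DNA from whole tissue, another mix of cell types and a change within a cell type cannot be told apart. Of all 33982 windows tested, 72.7% were called, with 40.0% higher and 32.7% lower, so the members' share of calls was below that of windows at large. The member median of the log2 change was 0.23, against 0.19 over all windows.

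Changes between the tissues ran with abundance over all windows. On the control diet the median log2 change was 1.15 in the decile of windows with the least captured DNA and -0.78 in the most abundant decile. Set against the median of their own decile, 16 members lay above it and 25 below, with a median gap of -0.28. Lhx2 at 1.59 lay in a decile whose median was 1.00, while Pax4 at 1.56 and Lhx6 at 1.83 lay in deciles whose medians were 0.08 and -0.47.

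Of the sine oculis genes, Six4 and Six2 were higher in heart in every diet and Six5 was lower. Six4 acts with Eya proteins in skeletal muscle and sensory ganglia. Six4 had 3.83, 5.14, 5.74 and 5.18 CPM in control heart libraries and 0.932, 0.704, 0.978 and 0 CPM in control spleen libraries. Its heart and spleen libraries did not overlap in any diet, and the log2 change was 2.43 ± 0.39 with the control diet, 2.56 ± 0.40 with high fibre and 1.81 ± 0.39 with acetate (SE). The adjusted p-values from edgeR were 1.61e-06, 6.31e-07 and 0.000186. Six4 and Six2 passed the count filter in heart but not in spleen alone, so the direction of these 2 genes is not independent of the filter. With cyclic loess in place of TMM, a scaling that also levels windows across abundance, Six4 was at 1.27, 0.96 and 0.79 in the same order of diets and did not pass on acetate (adjusted p = 0.0732, edgeR). Six2, which keeps kidney progenitors undifferentiated, averaged 4.32, 2.88 and 2.59 CPM in heart on high fibre, acetate and control diet, against 0.902, 1.14 and 0.866 CPM in spleen. Its log2 changes of 1.23 to 1.96 were called in all 3 diets, but heart acetate replicate 1 with 1.18 CPM and heart control replicate 1 with 1.91 CPM fell within the spleen range. Under cyclic loess Six2 was at -0.04 with the control diet, 0.21 with high fibre and 0.13 with acetate, and passed in 0 diets.

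Six5 went the other way. It lies beside Dmpk at the myotonic dystrophy locus, and RefSeq places Dmpk within 1500 bases of its gene span, and whether reads near Dmpk enter this window is not given in the sources used here. Six5 had 1.61, 1.09, 1.33 and 1.14 CPM in control heart libraries, against 7.46, 5.63, 7.01 and 6.66 CPM in control spleen libraries. The highest heart library of any diet had 2.93 CPM and the lowest spleen library 4.79 CPM, with no overlap. The log2 change was -2.12 ± 0.29 with the control diet, -1.77 ± 0.27 with high fibre and -2.33 ± 0.32 with acetate, in a decile of windows whose median on the control diet was 1.00.

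Among the Dlx genes, Dlx5 and Dlx2 were higher in heart in all 3 diets and Dlx3 was lower. Dlx5 drives bone and jaw formation. It had 5.44, 6.67, 6.63 and 8.46 CPM in control heart libraries and 1.16, 1.13, 2.12 and 2.36 CPM in control spleen libraries, and no heart library of any diet came down to the spleen range. Its log2 change was 1.84 ± 0.29 with the control diet, 2.23 ± 0.32 with high fibre and 1.76 ± 0.33 with acetate. Dlx2, a gene of forebrain interneurons, averaged 4.54, 3.14 and 3.97 CPM in heart on high fibre, acetate and control diet, against 0.752, 1.56 and 0.821 CPM in spleen. It passed the count filter in heart but not in spleen alone, so its direction is not independent of the filter. Under cyclic loess Dlx2 was at 0.74 with the control diet, 0.58 with high fibre and -0.15 with acetate, none of which passed, and with 1 surrogate variable it did not pass on acetate (adjusted p = 0.0509, edgeR). Dlx3, a gene of skin and teeth, averaged 8.37, 10.9 and 10.4 CPM in heart and 20.8, 15.5 and 16.6 CPM in spleen in the same order of diets. Dlx1 passed the threshold on high fibre alone, at a log2 change of 1.56.

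Of 8 Pax genes 2 were called on the control diet, both higher in heart, and both were also called on high fibre and acetate. Pax4 specifies insulin-producing cells of the pancreas. It had 13.2, 10.1, 14.6 and 12.7 CPM in control heart libraries, against 4.19, 4.65, 3.58 and 3.87 CPM in control spleen libraries. Pax8, which directs thyroid and kidney formation, had 18.3, 16.95, 17.4 and 15.3 CPM in control heart libraries, against 5.13, 7.32, 9.12 and 6.23 CPM in control spleen libraries. For both genes the lowest heart library of any diet exceeded the highest spleen library. The log2 change of Pax4 was 1.56 ± 0.18 with the control diet, 1.12 ± 0.18 with high fibre and 0.96 ± 0.19 with acetate, and that of Pax8 was 1.23 ± 0.15, 0.91 ± 0.15 and 0.86 ± 0.17. On high fibre Pax6, Pax3, Pax9 and Pax1 were called higher in heart as well, so that 6 of 8 Pax genes passed there. Of all windows 80.7% were called on high fibre, and Pax3 and Pax9 did not pass the count filter in spleen alone.

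Lhx6 and Lhx2 were the Lhx genes called higher in heart in all 3 diets, and Lhx8 was called lower in all 3. With scaling by library totals in place of TMM, Lhx8 was called higher in all 3. Lhx6, a factor of cortical interneurons, had 28.2, 24.7, 24.9 and 26.6 CPM in control heart libraries, against 6.76, 6.76, 8.31 and 6.66 CPM in control spleen libraries. On high fibre it had 23.7, 23.1, 20.03 and 19.1 CPM in heart, against 15.9, 5.71, 15.1 and 9.64 CPM in spleen. The spleen libraries on high fibre were thus more spread and reached higher, though still below every heart library. The log2 change was 1.83 ± 0.20 with the control diet (adjusted p = 1.12e-09, edgeR), 0.87 ± 0.19 with high fibre and 1.92 ± 0.22 with acetate.

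Lhx2, needed for forebrain, eye and hair follicle, averaged 7.93 ± 1.10, 6.66 ± 2.23 and 5.42 ± 0.863 CPM in heart on high fibre, acetate and control diet, against 1.62 ± 0.430, 2.67 ± 1.04 and 1.59 ± 1.05 CPM in spleen (SD, n = 4 per group, but 3 for acetate heart). Under cyclic loess Lhx2 passed on high fibre at 0.89, but not on control diet at 0.65 (adjusted p = 0.0519, edgeR) or acetate at 0.42 (adjusted p = 0.232, edgeR). Lhx8, a gene of cholinergic neurons and oocytes, differed little, with 12.9 ± 0.190 CPM in control heart and 17.6 ± 1.20 CPM in control spleen (SD, n = 4 each). Lhx9, which acts in gonad formation, was higher in heart on control diet and high fibre at log2 changes of 1.18 and 1.43, and was at -0.10 on acetate, where spleen libraries had 19.7, 3.28, 1.89 and 11.9 CPM. Lhx1, an organizer and kidney gene, and Lhx3, a pituitary gene, were each called higher in 2 of the 3 diets.

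The 18 tested Sox genes had a median log2 change of -0.19 on the control diet. Sox30, a gene of round spermatids, had 14.2, 12.6, 13.4 and 13.3 CPM in control heart libraries, against 55.5, 29.8, 42.4 and 34.0 CPM in control spleen libraries. Sox8, a SoxE gene of neural crest and testis, had 6.05, 4.59, 5.15 and 5.05 CPM in control heart libraries, against 18.6, 15.8, 21.2 and 17.6 CPM in control spleen libraries. Neither gene's tissues overlapped in any diet, although Sox8 came close with 10.6 CPM in heart acetate replicate 1 and 11.1 CPM in the lowest spleen library. The log2 change of Sox30 was -1.57 ± 0.17 with the control diet, -1.74 ± 0.17 with high fibre and -1.63 ± 0.19 with acetate, and that of Sox8 was -1.75 ± 0.23, -2.62 ± 0.25 and -1.52 ± 0.27.

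Sox18 and Sox17 are SoxF genes of endothelium. Sox18 had 1.71, 3.06, 3.09 and 2.65 CPM in control heart libraries, against 13.0, 10.6, 13.8 and 9.67 CPM in control spleen libraries, a log2 change of -2.06 ± 0.27. Sox17 had 2.92, 2.95, 3.39 and 2.90 CPM in control heart libraries and 0.466, 2.67, 1.30 and 1.29 CPM in control spleen libraries, a log2 change of 0.86 ± 0.41 that did not pass (adjusted p = 0.0585, edgeR). Sox7, the remaining SoxF gene, was at 0.19 ± 0.18.

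All 3 SoxD genes were called in every diet. Sox13 had 47.2 to 92.2 CPM in heart libraries and 102 to 170.3 CPM in spleen libraries, and Sox5 had 56.3 to 72.5 CPM in heart and 76.8 to 100.06 CPM in spleen, both called lower in heart in all 3 diets. With scaling by library totals or cyclic loess in place of TMM, Sox5 was called higher in heart in all 3 diets. Sox6 had 33.6 to 47.5 CPM in heart and 24.3 to 32.9 CPM in spleen, called higher at log2 changes of 0.38, 0.47 and 0.32 on control diet, high fibre and acetate. Of the SoxC genes, Sox12 was lower in heart in all 3 diets, with control averages of 9.14 ± 1.38 CPM in heart and 18.8 ± 2.39 CPM in spleen (SD, n = 4 each). Sox4, a SoxC gene of lymphoid and heart outflow development, was lower on control diet and high fibre at -0.99 and -0.92 and was at -0.32 on acetate without passing.

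Sox3, an X-linked gene of the pituitary and brain, was nearly absent from spleen. Control heart libraries held 40 counts in all and the 4 control spleen libraries held 0. With 3 counts over the spleen group taken as the floor, the ratio of heart to spleen was 8.76. A 95% interval that also covers the counting error in heart began at 6.80. Control heart replicate 3 had 2.36 CPM, and the next highest control heart library had 1.01 CPM. The window passed the count filter in heart but not in spleen alone, so its direction is not independent of the filter. On high fibre heart held 30 counts and spleen 2, a ratio of 7.52 (95% interval 1.91 to 64.9), and on acetate heart held 29 counts and spleen 2, a ratio of 11.3 (2.87 to 98.1). The intervals cover counting error only. With Sox3 set at the ratio of 8.76 the control diet median over the 41 members stayed at 0.23.

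Over all 3 diets, 11 members were called higher in heart each time and 9 lower each time, and 0 were called in opposite directions. Among the higher were Six4, Dlx5, Pax4, Pax8 and Lhx6, and the 9 lower were Six5, Dlx3, Lhx8, Sox5, Sox8, Sox12, Sox13, Sox18 and Sox30. Of all windows 29.6% were higher in all 3 diets and 26.9% lower. Another 10 members were called on high fibre alone, all higher in heart: Pax1, Pax3, Pax6, Pax9, Dlx1, Sox2, Sox11, Sox14, Sox17 and Sox21. The share of all windows called on high fibre alone was not counted, so these members are not set apart from windows at large. High fibre called 80.7% of all windows, against 72.7% on the control diet and 63.0% on acetate. Of the 10 members, Pax3, Pax9, Dlx1, Sox2, Sox14 and Sox21 passed the count filter in heart but not in spleen alone, as did Six2, Six4, Dlx2 and Sox3. Low counts in heart would have kept such windows out of the test, so their direction is not independent of the filter. For none of them was the tissue difference on high fibre called different from that on the control diet. Lhx4, a pituitary gene, was called higher on acetate alone, at 0.47 ± 0.19. The members called in no diet were Sox1 and Sox10 of neural tissue and neural crest, Sox9 of cartilage and testis, Sox7, Pax2 of the kidney and Pax7 of muscle satellite cells. On high fibre 33 of 41 members were called, 23 higher and 10 lower, against 80.7% of windows (45.1% higher, 35.6% lower). On acetate 22 were called, 13 higher and 9 lower, against 63.0% of windows (34.0% higher, 29.0% lower), and 23 were called (14 higher, 9 lower) without heart acetate replicate 1. The plot of heart over spleen changes in each diet sets these values side by side.

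**Figure D2:**
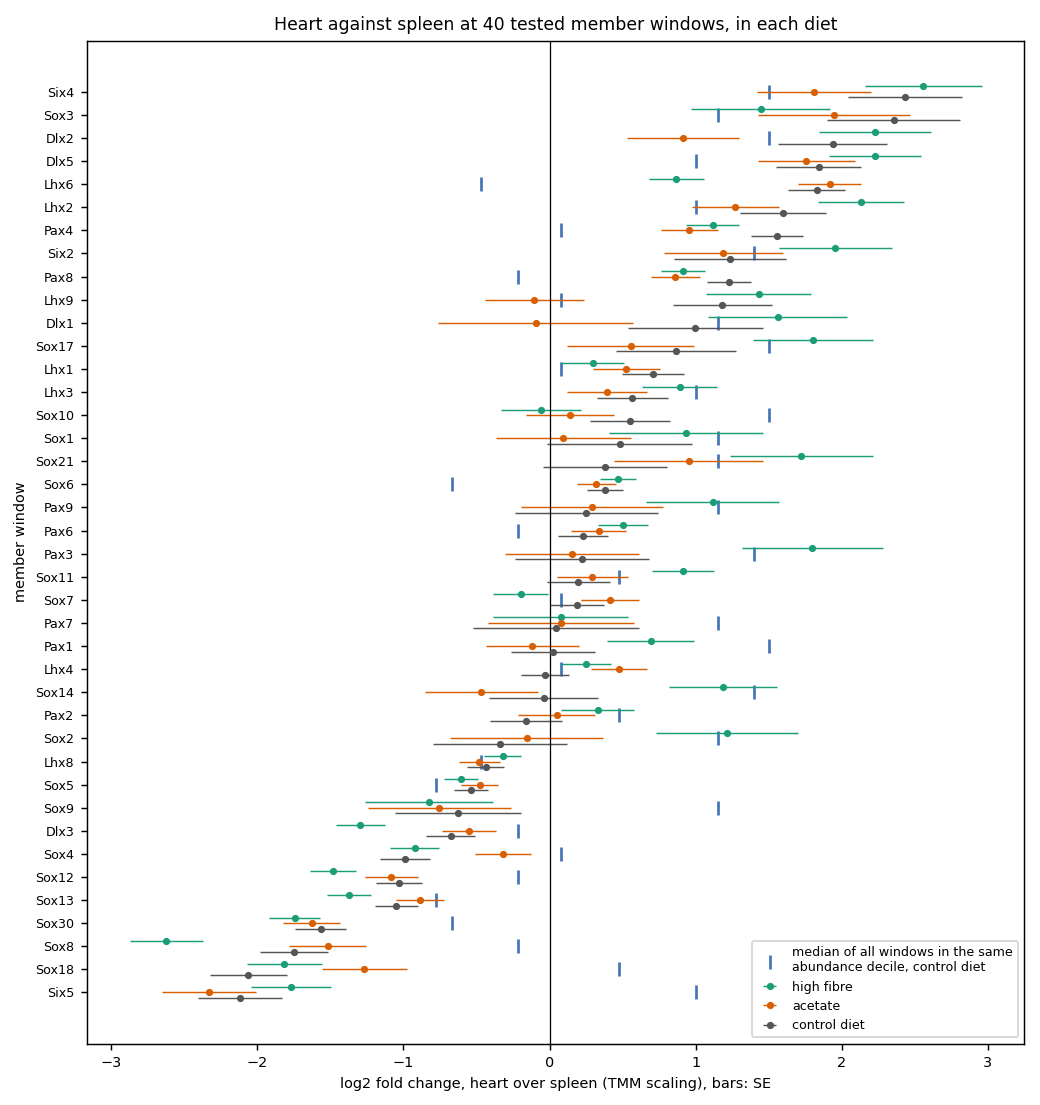
Log2 change, heart over spleen, for 40 tested members (rows) on high fibre, acetate and control diet; points are fitted changes and bars their SE. Vertical blue ticks give the median of all windows in the same abundance decile on the control diet; Six4 sits at the top and Six5 at the bottom, and Lhx6, Pax4 and Pax8 lie well to the right of their ticks.

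The split of calls depended on the scaling. On the control diet, scaling by library totals gave 25 higher and 4 lower, and cyclic loess gave 12 higher and 14 lower. On high fibre those splits were 33 and 1 by library totals and 12 and 11 by cyclic loess; on acetate they were 25 and 3, and 9 and 10. By library totals the log2 change over all windows had a median of 1.03 with the control diet, 1.77 with high fibre and 1.09 with acetate. The share of all windows called under each scaling is not given beside these counts, so they do not set the members apart from windows at large. Under TMM, library totals and cyclic loess, and in all 3 diets, Dlx5, Pax8, Pax4, Lhx6 and Sox6 were among those called higher in heart, and Sox8 was called lower. Six5, Sox30 and Sox18 were negative under every scaling but did not pass by library totals in 1 or 2 diets. Sox5 and Lhx8 changed sign under both other scalings, Sox12, Sox13 and Dlx3 by library totals and Six2, Dlx2 and Sox3 under cyclic loess, each in at least 1 diet. Sox5 passed as higher in heart in all 3 diets under both. By library totals its adjusted p-values on control diet, high fibre and acetate were 0.0211, 2.02e-08 and 0.00875 (edgeR). With cyclic loess they were 0.0299, 1.27e-05 and 0.0442 (edgeR). Lhx8 passed as higher in all 3 diets by library totals (adjusted p = 0.0231, 1.33e-08 and 0.0352, edgeR). Under cyclic loess Lhx8, like Dlx2 and Six2, passed in 0 diets, Sox13 and Sox3 passed on the control diet alone, and Dlx3 and Lhx2 on high fibre alone. By library totals Sox12, Sox13 and Dlx3 passed in 0 diets.

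**Figure D3:**
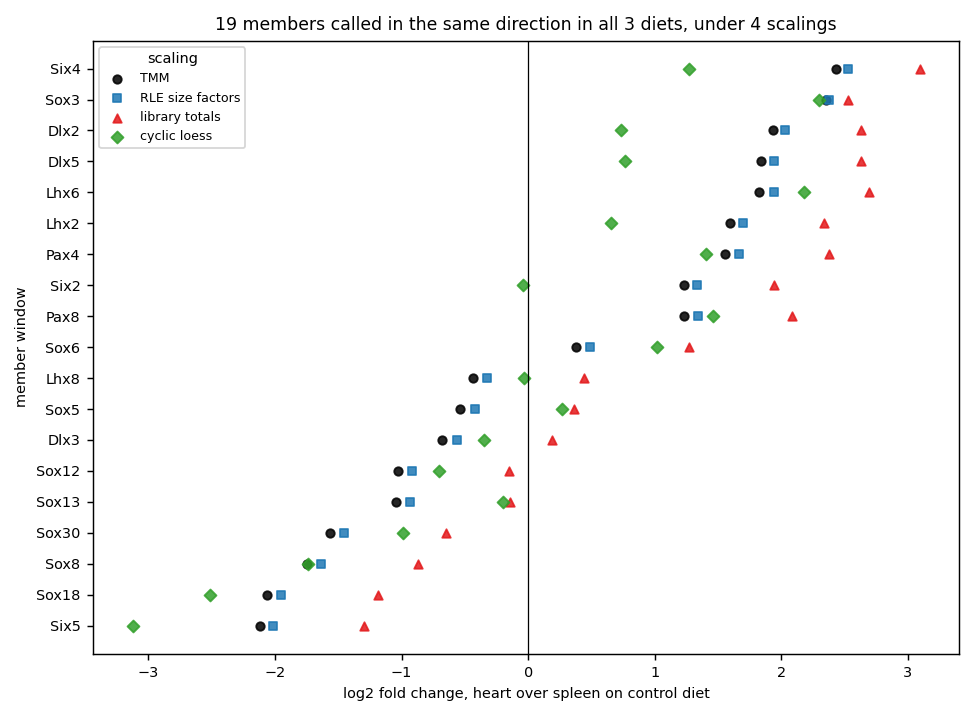
Log2 change, heart over spleen on the control diet, for 19 members called in the same direction in all 3 diets (rows), under TMM, RLE size factors, library totals and cyclic loess. Library totals lie to the right of TMM for every member, at 3.10 for Six4 and -1.30 for Six5, and cyclic loess takes Six2 to -0.04 and Sox5 to 0.26.

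Related gene lists were set beside the members. On the control diet 5 of 29 tested Hox cluster genes were higher in heart and 9 lower, with a median of -0.30, and 2 of 5 Iroquois genes were higher and 2 lower. Of 14 LIM domain partners and relatives of Lhx, 7 were higher and 6 lower, and of 7 homeobox relatives of Dlx, 4 were higher and 0 lower. Eya and Dach genes, with their partners, gave 2 higher and 3 lower of 6, Pou and catenin partners of Sox 2 and 2 of 9, and Polycomb genes with H3K27 demethylases 7 and 10 of 25. Of all windows tested, 40.0% were higher and 32.7% lower. None of these counts was tested as a list.

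On high fibre, captured DNA in heart was called different from that on the control diet at 9 of 39 tested members, 7 higher and 2 lower. Sox11, Sox17, Pax9, Sox14, Sox21, Lhx2 and Dlx1 were higher, and Sox8 and Sox13 were lower (edgeR, adjusted p under 0.05). Of all 33562 windows tested in heart 26.2% were called, 12.6% higher and 13.6% lower. The members' share of calls was close to that background. The member median was 0.17 and that of all windows 0.02. Cell type marker windows were also called in this comparison. Of 4 myeloid marker windows 3 were lower and 0 higher (median log2 change -0.42), and of 8 T cell windows 3 were lower and 1 higher. Cardiomyocyte markers had 1 higher and 4 lower of 14, B cell markers 2 and 2 of 9, and endothelial markers 0 and 1 of 6. Their part in the members' result was not tested.

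Sox11, a SoxC gene of neural progenitors and heart outflow development, had 10.5, 9.41, 8.37 and 8.60 CPM in high fibre heart libraries, against 4.64, 6.78, 6.63 and 4.67 CPM in control heart libraries. No high fibre library overlapped the controls. The log2 change was 0.69 ± 0.17 with an adjusted p of 0.0102 from edgeR, in a decile of windows with a median of 0.09. The 3 acetate heart libraries, with 3.73, 6.34 and 6.50 CPM, lay within or below the control range.

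Sox17, needed for endoderm and arterial endothelium, had 5.63, 5.36, 5.55 and 8.22 CPM in high fibre heart libraries, against 2.92, 2.95, 3.39 and 2.90 CPM in control heart libraries. The groups did not overlap, and the log2 change was 0.99 ± 0.27 (adjusted p = 0.0141, edgeR). Lhx2 had 8.15, 6.79, 7.43 and 9.36 CPM on high fibre and 5.14, 4.59, 6.63 and 5.30 CPM on the control diet, again without overlap, at a log2 change of 0.56 ± 0.18 (adjusted p = 0.0294, edgeR).

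The other 4 higher members lay in the least abundant decile of windows, whose median change was 0.54. Control heart libraries of Pax9, Dlx1 and Sox21 all held fewer counts than the filter on low counts asks for. These windows were thus tested through other heart libraries, chiefly those on high fibre, so their direction is not independent of the filter. Sox21 was tested in 9 runs with a library left out, against 11 for Pax9. Pax9, a gene of teeth and vertebrae, had 2.28, 1.55, 1.13 and 4.06 CPM in high fibre heart libraries, against 0.605, 0.438, 1.18 and 0.757 CPM in control heart libraries. Sox14, a gene of interneurons, had 2.76, 2.38, 3.57 and 2.84 CPM on high fibre and 1.31, 1.09, 1.03 and 1.64 CPM on the control diet. Sox14 groups did not overlap, and Pax9 groups overlapped by 1 library on each side. Their log2 changes were 1.398 ± 0.39 for Pax9 (adjusted p = 0.0149) and 1.07 ± 0.31 for Sox14 (adjusted p = 0.0195), both from edgeR.

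Sox21, a gene of neural differentiation, had 0.360, 0.834, 1.03 and 1.80 CPM in high fibre heart libraries, against 0.202, 0.438, 0.295 and 0.126 CPM in control heart libraries. The lowest high fibre library lay within the control range. Dlx1, named here after its values were seen, had 0.959, 1.79, 2.92 and 1.61 CPM on high fibre and 0.302, 0.766, 0.884 and 0.757 CPM on the control diet, without overlap. Log2 changes were 1.35 ± 0.41 for Sox21 (adjusted p = 0.0219) and 1.22 ± 0.41 for Dlx1 (adjusted p = 0.0319), both from edgeR.

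Both lower members were Sox genes that were also lower in heart than in spleen. Sox8 had 2.88, 1.79, 3.01 and 3.21 CPM in high fibre heart libraries, against 6.05, 4.59, 5.15 and 5.05 CPM in control heart libraries, with no overlap. Its log2 change was -0.87 ± 0.29 (adjusted p = 0.0321, edgeR) in a decile with a median of 0.38. Sox13 had 51.5, 57.5, 53.1 and 47.2 CPM on high fibre and 72.9, 67.1, 72.5 and 62.5 CPM on the control diet, a log2 change of -0.38 ± 0.13 (adjusted p = 0.0325, edgeR) in the most abundant decile, where the median was -0.27. By library totals Sox13 was at 0.32 instead.

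**Figure D4:**
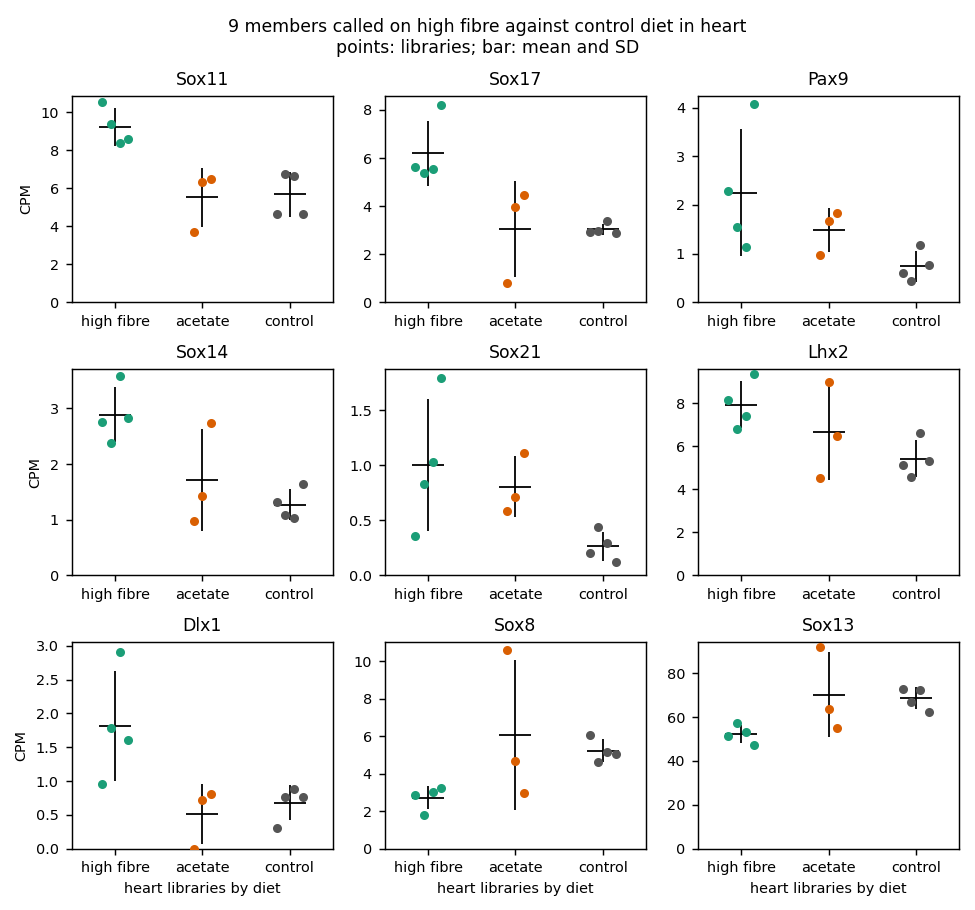
CPM in each heart library on high fibre, acetate and control diet for the 9 members called on high fibre against control diet; points are libraries and black crosses the mean with SD. Sox11, Sox17, Sox14, Lhx2 and Dlx1 on high fibre lie above every control library, Sox8 and Sox13 lie below, and heart acetate replicate 1 is the acetate point at 92.2 CPM for Sox13.

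Over all windows in heart, change on high fibre also ran with abundance, from a median of 0.54 in the least abundant decile to -0.27 in the most abundant, and 8 of the 39 tested members lay in the least abundant decile. Against the median of their own decile 22 members lay above and 17 below. By family 4 Sox genes were higher and 2 lower of 16, 1 of 8 Pax, 1 of 7 Lhx and 1 of 4 Dlx genes were higher. Among the 30 members that did not pass, Six2 was at 0.71 ± 0.28 (adjusted p = 0.0573, edgeR) and Sox2, the pluripotency factor, at 1.21 ± 0.47 (adjusted p = 0.0584, edgeR).

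**Figure D5:**
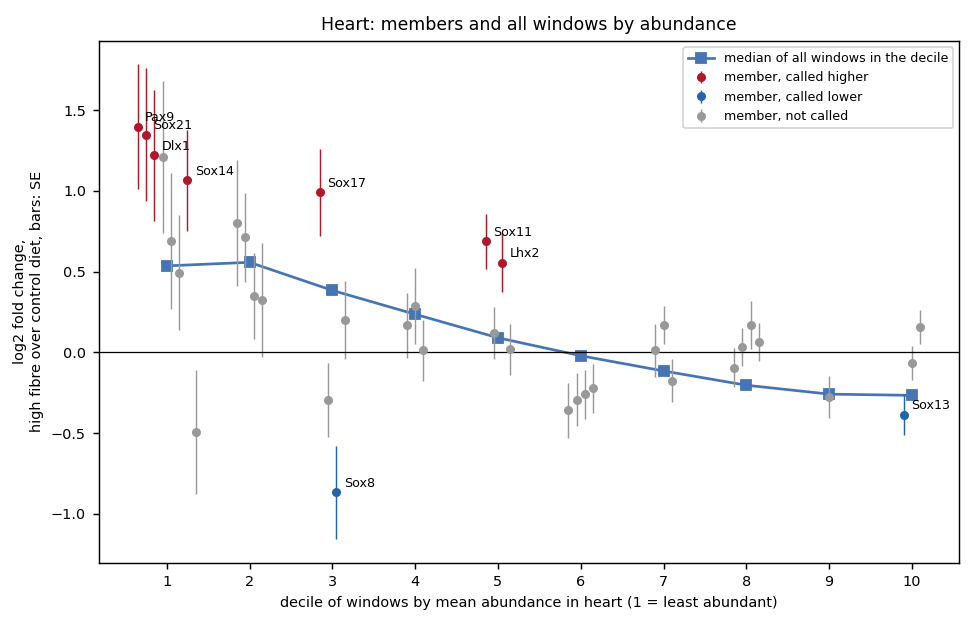
Log2 change in heart, high fibre over control diet, against the decile of all tested windows by mean abundance (1 is the least abundant); points are 38 tested members with SE, and blue squares the median of all windows in each decile. The squares fall with abundance, by values of 0.54 and -0.27 at the ends; Sox11, Sox17 and Lhx2 lie above them and Sox8 below.

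By group means in heart, the share of counts in the 47 windows was higher where the Gm10800 share was lower. Both are parts of the same total, so a lower Gm10800 share by itself raises the share of other windows. Members took 8.13 ± 0.316 of every 10000 counts in high fibre heart, 6.09 ± 1.20 in acetate heart and 5.02 ± 0.538 in control heart (SD, n = 4, 3 and 4). Counted outside Gm10800, those values were 10.04 ± 0.221, 9.17 ± 0.396 and 8.69 ± 0.311. The part of the Gm10800 share in these diet results was not tested. By library totals 34 of 39 members were higher and 0 lower, with the median of all windows at 0.69. The share of all windows called under other scalings is not given here, so such counts do not set the members apart. Cyclic loess called 3 higher and 2 lower, of which Sox11 and Sox8 were called under TMM too. Adding 1 surrogate variable to the fit left 0 members called, and leaving out single libraries gave 1 to 15 calls, with 1 call left without high fibre replicate 4 (Sox11) or control replicate 1 (Sox17). There were 5 calls without control replicate 3, 4 without high fibre replicate 3 and 15 without acetate replicate 1.

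Hox cluster genes, set beside the members, had 6 higher and 0 lower of 27 tested, with a median of 0.45, and Iroquois genes 2 higher and 1 lower of 5. Polycomb genes with H3K27 demethylases had 4 higher and 7 lower of 25, and LIM domain partners and relatives of Lhx 2 higher and 1 lower of 14. Eya and Dach genes, with their partners, gave 1 higher and 1 lower of 6, homeobox relatives of Dlx 0 of 7, and Pou and catenin partners of Sox 2 higher and 2 lower of 9. Of all windows tested in heart, 12.6% were higher and 13.6% lower, and no list was tested against that share.

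Acetate in heart passed the threshold at 0 of 39 members, and 0% of all windows were called. At an unadjusted p under 0.05 there were 3 members and 840 windows, and DESeq2 called 0 members. Sox21 had 0.588, 0.717 and 1.12 CPM in acetate heart libraries, above all 4 control heart libraries given above, at a log2 change of 1.11 ± 0.45 (adjusted p = 1, edgeR). On the other side, Lhx9 was at -0.25 ± 0.19 and Pax8 at -0.16 ± 0.13. Without acetate replicate 1 the count was also 0.

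High fibre against acetate in heart passed at 0 members, against 1.38% of all windows (0.188% higher, 1.19% lower). At an unadjusted p under 0.05 there were 7 of 39 members and 9105 of 33562 windows, and DESeq2 called 1 member. Sox11 was nearest, at a log2 change of 0.66 ± 0.19 (adjusted p = 0.0569, edgeR), with all 4 high fibre libraries above all 3 acetate libraries. Sox7, a SoxF gene, had 6.95, 6.91, 7.52 and 6.81 CPM in high fibre heart libraries, against 8.23, 11.1 and 11.1 CPM in acetate heart libraries, a log2 change of -0.54 ± 0.16 (adjusted p = 0.0609, edgeR) without overlap. Sox8 was at -0.99 ± 0.31 and Dlx1 at 1.36 ± 0.46. There were 2 calls without acetate replicate 2 and 5 without acetate replicate 3. Both heart comparisons with high fibre use the same high fibre libraries.

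In spleen 0 of 28 tested members passed in any of the 3 diet comparisons, and 0% of the 24871 windows tested were called. DESeq2 called 0 members in each. At an unadjusted p under 0.05 there were 2 members for high fibre against control diet, 2 for acetate against control diet and 5 for high fibre against acetate. In the same order 502, 872 and 823 of the 24871 windows had such a p-value (edgeR). Lhx6 had 15.9, 5.71, 15.1 and 9.64 CPM in high fibre spleen libraries, 10.1, 5.74, 5.39 and 5.70 CPM in acetate spleen libraries, and 6.76, 6.76, 8.31 and 6.66 CPM in control spleen libraries. On high fibre 3 of 4 libraries were above every control library and 1 was below, at a log2 change of 0.67 ± 0.25 (adjusted p = 1, edgeR). Dlx3 was at 0.32 ± 0.15, Pax1 at -0.32 ± 0.34 and Lhx3 at -0.29 ± 0.32 in the same comparison.

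Lhx9 on acetate rested on 2 spleen libraries. They had 19.7 and 11.9 CPM, while the other 2 had 3.28 and 1.89 CPM, against 4.19, 2.96, 7.98 and 3.22 CPM in control spleen libraries. The groups overlapped, and the log2 change of 1.01 ± 0.41 did not pass (adjusted p = 0.999, edgeR). Pax4 was at 0.47 ± 0.26, Sox4 at -0.37 ± 0.17 and Sox18 at -0.32 ± 0.18 on acetate against control diet. For high fibre against acetate Lhx9 was at -1.24 ± 0.42, Lhx6 at 0.71 ± 0.26, Dlx3 at 0.38 ± 0.15 and Pax1 at -0.70 ± 0.35, none of which passed.

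The difference between heart and spleen in the diet effect was tested directly. For high fibre 0 of 41 members passed, against 0.0559% of all windows (0.0177% higher, 0.0383% lower). At an unadjusted p under 0.05 there were 8 members and 5571 of 33982 windows, and DESeq2 called 0 members. Lhx6 came nearest, with a log2 change on high fibre that was 0.96 ± 0.27 lower in heart than in spleen (adjusted p = 0.146, edgeR), followed by Dlx3 and Sox8. Of the members higher on high fibre in heart, Sox11 was at 0.72 ± 0.31 and Sox14 at 1.23 ± 0.53 in this test, neither of which passed. For acetate 0 members and 0% of windows passed, with 3 members and 1553 windows at an unadjusted p under 0.05. DESeq2 called 0 members, and Lhx9 was at -1.29 ± 0.49.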

How the data were processed

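Captured methylated DNA was counted in 23 mouse libraries, 11 from heart and 12 from spleen. The deposited values are counts, whole reads per window, in 1 table for each tissue, without scaling or pooling. Per the submitters' processing notes, bcl2fastq 2.19.1.403, BWA 0.7.10, featureCounts 1.5.1, edgeR 3.16.5 and build GRCm38 were used. The treatment of duplicates, and of reads that touch more than 1 window, is not given in the sources used here. No unenriched input was used, so a count also holds the efficiency of capture and the copy number of the DNA. The members and gene lists were chosen with earlier results of these data known. The values of 1 member are not reported here, and it is left out of the figures by member, while counts over all members include it.

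All windows entered each fit, tested in R 4.3.3 by edgeR 4.0.16 (quasi-likelihood), with TMM factors, filterByExpr at a minimum count of 10, Benjamini-Hochberg adjustment at 5%, a prior count of 2 and two-sided tests. Diets were compared in a fit per tissue. Comparisons of tissues used all 23 libraries. The fits were tested on simulated data with planted changes. Of planted 1.5-fold changes, 34% were called for high fibre against control diet in heart and 21% in spleen. Between heart and spleen on the control diet 17% were called. At 2-fold the shares were 81%, 71% and 61% in the same order, so small changes could be missed. No libraries held identical counts. The labels do not tie libraries with the same number in their titles to a shared mouse, and not every such pair deviated together, so the numbers were not taken as pairs. Values per library are given for up to 6 members per direction with the smallest p among those called in a comparison (2 per direction where none was), and for members called alike between tissues in all 3 diets. Alternatives were RLE size factors, library totals, cyclic loess (limma 3.58.1, pseudocount 0.5), DESeq2 1.42.0, no filter, 1 surrogate variable (sva 3.50.0), a replicate block, the 2 compared groups alone, and leaving out each library. Leaving out a library of a group not compared was added after seeing the data.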

Additional observations from a re-analysis of the deposited data

Results flagged for a closer look

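Of 159 groups of 4 libraries checked over 32 members, 9 held a library far from the other 3, where chance flags about 1 in 20 groups (8 here). All are CPM values. On high fibre in heart, Six4 had 7.07 in replicate 1 and Sox17 8.22 in replicate 4, each high. On the control diet in heart, Sox17 had 3.39 and Sox3 had 2.36 in replicate 3, each high. In spleen, Sox3 had 0.369 in high fibre replicate 1, where the other 3 libraries were at 0, and Sox30 had 57.5 in acetate replicate 4. Lhx6 had 10.1 in acetate replicate 1 and 8.31 in control replicate 3 in spleen, each high, and Lhx8 had 15.8 in spleen control replicate 3, the lowest of its group.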

How the results depend on the processing

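The 9 members called on high fibre against control diet in heart became 34 by library totals, 5 under cyclic loess and 0 with 1 surrogate variable, and 1 to 15 when single libraries were left out (high fibre replicate 4 or control replicate 1 left 1, high fibre replicate 3 left 4, control replicate 3 left 5 and acetate replicate 1 gave 15). High fibre against acetate in heart went to 4 by library totals, 1 by DESeq2, 3 with a replicate block and 0 to 5 with a library left out (2 without acetate replicate 2, 5 without acetate replicate 3). The tissue difference in the high fibre effect went to 9 by library totals and 1 with the block. Counts between tissues ran from 23 to 26 on the control diet, 29 to 33 on high fibre and 18 to 23 on acetate with a library left out. Other counts stayed at 0. Library totals turned Sox13 to 0.32 on high fibre against control diet in heart. Between tissues they turned Sox5 to 0.36, Dlx3 to 0.19 and Lhx8 to 0.44 on the control diet, Sox12 to 0.0863, Sox13 to 0.21, Dlx3 to 0.27, Sox5 to 0.99 and Lhx8 to 1.25 on high fibre, and Sox13 to 0.0045, Sox5 to 0.45, Dlx3 to 0.36 and Lhx8 to 0.46 on acetate. Cyclic loess turned Six2 to -0.0412 and Sox5 to 0.26 on the control diet, Sox3 to -0.0834, Sox5 to 0.56 and Lhx8 to 0.26 on high fibre, and Dlx2 to -0.15 and Sox5 to 0.28 on acetate. The causes were not tested, and the shares of all windows called are not given beside these counts.

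With a library left out, Sox11 lost its high fibre call in heart without control replicate 1 and Sox17 without high fibre replicate 4, and Pax9, Sox21, Sox14, Lhx2, Sox13 and Sox8 lost theirs in 2, 2, 4, 5, 6 and 7 of their runs. Between tissues on acetate Dlx2, Six2, Sox6 and Dlx3 lost theirs in 4, 3, 3 and 2 runs, and Lhx8 on high fibre in 3. The replicate block gave 11 calls on high fibre against control diet in heart and ended only the call of Six2 between tissues on acetate among the named members. Same-numbered heart and spleen libraries had deviations correlated at -0.068 to 0.385, over 0.1 in 4 of 11 pairs, against 4 of 33 pairs with different numbers. Between diets, same-numbered libraries were over 0.1 in 5 of 10 heart pairs (highest 0.6) and 5 of 12 spleen pairs (highest 0.518), and with different numbers in 6 of 30 and 5 of 36. Not every library correlated best with its own number. Low windows such as Sox21, with 79 counts over all libraries, limit what these depths can show.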
